A study of Mus musculus with 12 samples.

Results

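The 38 genes described here encode proteins of the synaptic vesicle, of the machinery that fuses it with the plasma membrane and of the active zone where fusion takes place. They were taken by gene symbol from a list of presynaptic genes, by a rule that uses no measured values, though with earlier results of these data known, and are 38 of the 46603 genes in the deposited count tables. RNA was sequenced from microdissected neocortex of mice on a C57Bl/6J background in 4 groups, Chd8+/+ at embryonic day 12.5 (E12.5), Chd8+/- at E12.5, Chd8+/+ at postnatal day 5 (P5) and Chd8+/- at P5. Each group had 3 libraries, 12 in all. Chd8+/- mice carried 1 null allele of Chd8, the gene of a chromatin remodeler, obtained by crossing a conditional allele with a ubiquitously expressed β-actin Cre line, so that the allele was not restricted to neurons. RNA was taken from 1 hemisphere at P5 and from the pair of hemispheres at E12.5, and the libraries held all cell types of the dissected cortex. The labels do not say whether libraries came from separate animals, so that p-values measure the spread between these libraries, which may in part be technical.

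A presynaptic terminal stores transmitter in small vesicles. Transporters fill them, synapsins tether them to each other, and the scaffold proteins of the active zone hold a fraction of them at the membrane. There, SNARE proteins pull the membranes together, complexins hold the assembled complex, and synaptotagmins, most of which bind calcium, trigger fusion when an action potential opens calcium channels. Dynamin and amphiphysin then take part in retrieving the membrane. In the neocortex, most neurons are born during the last part of gestation and form most of their synapses after birth, so that E12.5 precedes and P5 falls within the period of synapse formation.

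Between 38774591 and 54695236 counts were assigned to genes in a library. Levels are given as RPKM, which are counts divided by the length of the merged exons in kilobases and by the library size, with library sizes scaled by the trimmed mean of M-values (TMM), so that they can be compared between genes. As a check of the genotype labels, Chd8 was at 229 to 236 CPM, which are counts scaled to library size alone, in the Chd8+/+ libraries and 161 to 167 CPM in the Chd8+/- libraries at E12.5. At P5 it was at 145 to 151 CPM in Chd8+/+ and 95.01 to 98.6 CPM in Chd8+/-, and the genotypes did not overlap at either stage. The cortical marker Emx1 was detected in every library, at 22.3 to 27.1 CPM at P5. Of the E12.5 libraries, Chd8+/- replicate 2 stood apart, with 156 CPM of the thalamic marker Tcf7l2 against 23.7 to 29.8 CPM in the other 5, and 35.2 CPM of Emx1 against 46.9 to 53.8 CPM. At P5, Chd8+/+ replicate 1 had 20.6 CPM of Tcf7l2 against 3.98 to 7.19 CPM in the other 5. Over all genes, P5 Chd8+/- replicate 3 was the farthest from its own group, with a chi-square per degree of freedom of 49.7 and 43.7 against the other libraries of the group, where all other pairs within a group were between 7.09 and 18.1. The counts of members in the genotype comparisons are also given without these libraries. The labels give no sex, and 1 library in each group had high Xist counts. At E12.5 these were Chd8+/+ replicate 3 (2009 CPM) and Chd8+/- replicate 1 (1430 CPM). At P5 they were Chd8+/+ replicate 1 (1025 CPM) and Chd8+/- replicate 1 (835 CPM). This matters for the X-linked members Syn1 and Syp. Leaving out 1 of these libraries leaves its group without an Xist-high library.

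The 4 promoters shown here include that of Syn1, the textbook example of a neuron-restricted promoter. Those of Slc17a7 and Slc17a6 belong to the vesicular glutamate transporters whose levels moved apart most between the stages. The last is that of Stx1a, whose genotype difference changed sign between the stages, as did that of other members such as Syn1. The RefSeq promoter table (GRCm38.p6) held 30 of the 38 members. Each sequence runs 5′ to 3′ on the strand of its gene and ends where the annotated gene begins. Capitals mark TTCAGCACC, the left part of the site bound by the repressor REST, TGACGTCA, the full cyclic AMP response element, and the GC box GGGCGG or its reverse complement CCGCCC.
Syn1: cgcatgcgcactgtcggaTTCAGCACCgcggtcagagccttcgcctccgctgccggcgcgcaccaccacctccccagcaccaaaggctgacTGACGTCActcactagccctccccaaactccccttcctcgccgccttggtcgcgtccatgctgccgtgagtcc
Slc17a7: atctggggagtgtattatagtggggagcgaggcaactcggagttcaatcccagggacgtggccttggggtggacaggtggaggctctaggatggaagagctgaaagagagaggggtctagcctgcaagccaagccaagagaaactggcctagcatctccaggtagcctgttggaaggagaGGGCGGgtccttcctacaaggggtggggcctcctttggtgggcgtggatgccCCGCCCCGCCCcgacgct
Slc17a6: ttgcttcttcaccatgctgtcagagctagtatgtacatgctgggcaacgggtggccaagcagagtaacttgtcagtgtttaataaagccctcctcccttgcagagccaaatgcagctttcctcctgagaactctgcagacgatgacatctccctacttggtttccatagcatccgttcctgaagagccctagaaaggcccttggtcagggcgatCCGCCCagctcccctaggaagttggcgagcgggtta
Stx1a: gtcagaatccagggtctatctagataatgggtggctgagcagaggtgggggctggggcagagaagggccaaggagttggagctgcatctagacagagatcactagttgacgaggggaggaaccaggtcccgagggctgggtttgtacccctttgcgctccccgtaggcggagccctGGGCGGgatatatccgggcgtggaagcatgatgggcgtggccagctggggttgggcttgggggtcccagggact
The Syn1 stretch lies at chrX:20921005-20921168 on the minus strand, and those of Slc17a7 at chr7:45163671-45163920, Slc17a6 at chr7:51621580-51621829 and Stx1a at chr5:135023232-135023481 all lie on the plus strand. Over the 250 bases before the RefSeq start and on both strands, TTCAGCACC was found for 1 of the 30 members, Syn1, and for 0.348% of the 27025 genes in the table. TGACGTCA was also found for Syn1 alone among the members, against 1.77% of all genes, and TATAAA was found for Sv2b alone, against 14.3%. GGGCGG was found for 19 of the 30 members (63.3%) and for 35.4% of all genes. The median number of CpG dinucleotides in this window was 12.5 for the members and 6 for all genes. Syn1 had 27, Stx1a and Slc17a7 had 9 each, and Slc17a6 had 7. These matches describe the letters in the window and were not tested for function, and a gene with several listed promoters counted once if any of them held the letters.

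From E12.5 to P5, 37 of the 38 genes rose in Chd8+/+ neocortex. The median member rose by 3.02 on the log2 scale, or 8.09-fold, while the median over all 19676 genes tested was -0.02. The exception in Chd8+/+ was Slc17a6, the vesicular glutamate transporter VGLUT2, with a log2 fold change of -0.12 (SE 0.0675), which did not pass edgeR's quasi-likelihood test after Benjamini-Hochberg adjustment (adjusted p = 0.108). As a background, 41.4% of all genes tested were called higher at P5 in Chd8+/+ and 41.3% in Chd8+/-. In Chd8+/-, 37 members were called higher as well, with a median of 2.95, and Slc17a6 was called lower. The share of all counts that fell on the 38 genes went from between 0.168% and 0.187% in the E12.5 libraries to between 1.10% and 1.12% in the P5 libraries. In bulk tissue, fewer cells of a type and less RNA per cell cannot be told apart. The stages were also sequenced and counted in separate tables, so that stage and table cannot be told apart.

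**Figure D1:**
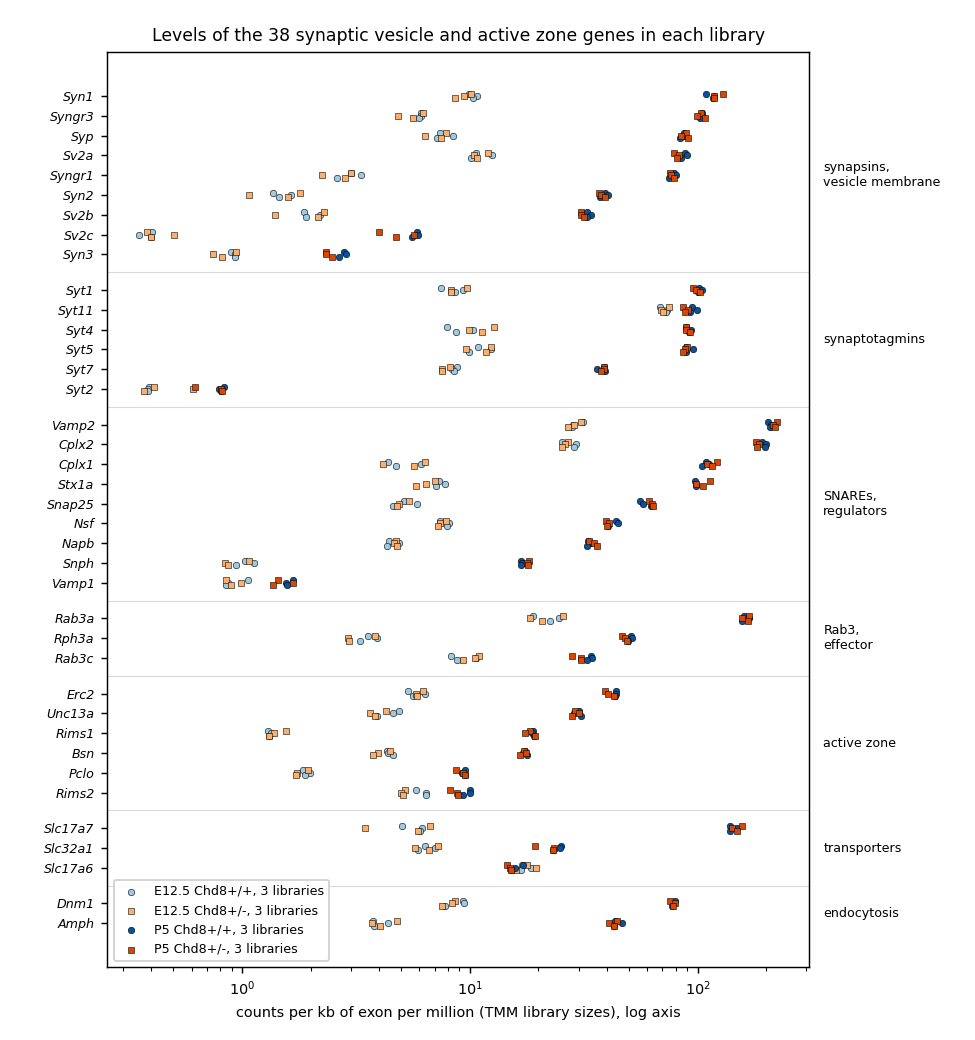
Level of each of the 38 genes in each of the 12 libraries, in RPKM on a log axis, ordered within role classes by the P5 level. Light symbols are E12.5 and dark symbols P5, circles are Chd8+/+ and squares Chd8+/-, and the stages are apart for nearly all genes, while Slc17a6 lies between 14.6 and 19.4 in all libraries.

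Other cell populations changed between the stages too, and their part in these values was not tested. Of 14 pan-neuronal genes outside the synapse, 11 were called higher and 3 lower at P5 in Chd8+/+, and their median log2 fold change was 0.84. Of 10 progenitor markers, 9 were called lower, with a median of -3.54, and their summed level went from between 915 and 979 RPKM over the E12.5 libraries to between 389.5 and 492.5 RPKM over the P5 libraries. Of 8 astrocyte markers, 7 were called higher, with a median of 4.55.

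Synapsins and the other vesicle membrane proteins had the highest class median, 3.91 on the log2 scale in Chd8+/+, and all 9 were called higher. Synapsin 1 (Syn1) was the most abundant of them at P5. At E12.5 it was at 9.90, 10.8 and 10.3 RPKM in the Chd8+/+ libraries and at 10.1, 9.40 and 8.64 RPKM in the Chd8+/- libraries. Its P5 levels were 109, 118 and 117 RPKM in Chd8+/+ and 129, 118 and 118 RPKM in Chd8+/-. The stages were thus far apart, with an 11.1-fold rise in Chd8+/+ (log2 3.47, SE 0.0655, edgeR adjusted p = 2.19e-15). Synaptogyrin 1 (Syngr1), a tetraspan vesicle protein, had the largest change of the 38. It was at 2.99, 3.32 and 2.61 RPKM in Chd8+/+ and 3.00, 2.25 and 2.83 RPKM in Chd8+/- at E12.5, and at P5 at 79.1, 80.5 and 75.2 RPKM in Chd8+/+ and 75.3, 76.7 and 78.4 RPKM in Chd8+/-. Its rise in Chd8+/+ was 26.3-fold (log2 4.72, SE 0.0992, edgeR adjusted p = 6.04e-15).

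Synapsin 2 (Syn2) rose by nearly as much as Syngr1, from a lower start. Its E12.5 levels were 1.36, 1.64 and 1.46 RPKM in Chd8+/+ and 1.79, 1.08 and 1.58 RPKM in Chd8+/-, the lowest of which was in the library with high Tcf7l2. Its P5 levels were 39.1, 40.2 and 37.4 RPKM in Chd8+/+ and 37.0, 37.8 and 39.4 RPKM in Chd8+/-, a 26.3-fold rise in Chd8+/+ (log2 4.71, SE 0.122). Synapsin 3 (Syn3), the synapsin expressed early in neuronal life, rose 3.03-fold from means of 0.916 to 2.78 RPKM in Chd8+/+. Synaptophysin (Syp) rose 11.2-fold and Syngr3 17.1-fold. Of the SV2 glycoproteins, which bind synaptotagmin, Sv2a rose 7.91-fold, Sv2b 16.6-fold and Sv2c 15.01-fold.

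All 6 synaptotagmins were called higher at P5, but over a wide range. Synaptotagmin 1 (Syt1), the calcium sensor of fast release, was at 7.44, 9.35 and 8.65 RPKM in Chd8+/+ and 9.69, 8.28 and 8.23 RPKM in Chd8+/- at E12.5. P5 levels were 101, 104 and 101 RPKM in Chd8+/+ and 95.5, 98.0 and 102 RPKM in Chd8+/-, with a 12.1-fold rise in Chd8+/+ (log2 3.59, SE 0.0870, edgeR adjusted p = 2.36e-14). Syt4 rose 10.2-fold, Syt5 8.27-fold and Syt7, a sensor of slow release and of membrane repair, 4.45-fold. Synaptotagmin 11 (Syt11), which does not bind calcium, was the most abundant of the 38 genes at E12.5 and ranked 10th at P5. Its E12.5 levels were 68.3, 73.1 and 72.3 RPKM in Chd8+/+ and 74.7, 69.2 and 70.6 RPKM in Chd8+/-, and its P5 levels were 94.1, 99.2 and 92.2 RPKM in Chd8+/+ and 86.0, 91.0 and 88.4 RPKM in Chd8+/-. All P5 libraries were above all E12.5 libraries, yet the rise of 1.34-fold (log2 0.42, SE 0.0506, edgeR adjusted p = 2.23e-06) was the smallest among the members called higher. Syt2 was the least abundant member at P5, with a mean of 0.811 RPKM in Chd8+/+.

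The SNARE proteins and their regulators all rose, with a median log2 fold change of 2.87 over 9 members. Synaptobrevin 2 (Vamp2), the SNARE on the vesicle, was the most abundant of the 38 genes at P5. At E12.5 it was at 31.3, 28.2 and 28.2 RPKM in Chd8+/+ and 30.7, 28.6 and 27.0 RPKM in Chd8+/-. At P5 it was at 203, 209 and 208 RPKM in Chd8+/+ and 224, 214 and 219 RPKM in Chd8+/-. This 7.08-fold rise in Chd8+/+ (log2 2.82, SE 0.0609, edgeR adjusted p = 7.69e-15) compares with 11.2-fold for Snap25 and 13.2-fold for syntaxin 1A (Stx1a), its partners on the plasma membrane. Complexin 1 (Cplx1) rose 21.4-fold and complexin 2 (Cplx2) 7.12-fold. Nsf, the ATPase that takes spent SNARE complexes apart, rose 5.49-fold and its adaptor Napb 7.29-fold. Syntaphilin (Snph), which anchors axonal mitochondria, rose 16.4-fold, and Vamp1 1.73-fold.

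Among the small GTPases of the vesicle, Rab3a rose 7.33-fold, Rab3c 3.65-fold and their effector rabphilin (Rph3a) 14.1-fold. Rab3a was at 18.9, 24.6 and 22.4 RPKM in Chd8+/+ and 25.7, 18.3 and 20.8 RPKM in Chd8+/- at E12.5. At P5 it was at 159.6, 167 and 156 RPKM in Chd8+/+ and 169, 157 and 167 RPKM in Chd8+/-, with the genotypes overlapping at both stages. Among the active zone proteins, the scaffold Erc2 was at 5.34, 6.36 and 5.60 RPKM in Chd8+/+ and 6.24, 5.79 and 5.85 RPKM in Chd8+/- at E12.5. Its P5 levels were 44.0, 44.0 and 43.2 RPKM in Chd8+/+ and 39.3, 40.5 and 42.9 RPKM in Chd8+/-, a 7.58-fold rise in Chd8+/+. Rims1, which tethers calcium channels near vesicles, rose 14.4-fold and the priming factor Unc13a 6.65-fold. The giant scaffolds Bassoon (Bsn) and Piccolo (Pclo) rose 3.94-fold and 4.94-fold. Rims2 changed least in this class. It was at 5.78, 6.44 and 6.40 RPKM in Chd8+/+ and 5.20, 4.99 and 5.11 RPKM in Chd8+/- at E12.5, and at 10.04, 9.99 and 9.37 RPKM in Chd8+/+ and 8.21, 8.74 and 8.87 RPKM in Chd8+/- at P5. The stages did not overlap in either genotype, and the rise in Chd8+/+ was 1.58-fold (log2 0.66, SE 0.0568, edgeR adjusted p = 4.83e-08), but with offsets for genomic span, Rims2 was called lower at P5 in both genotypes (log2 fold change -0.66 in Chd8+/+).

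The 3 transporters that load transmitter into vesicles went separate ways. Slc17a7, or VGLUT1, was at 5.05, 6.19 and 6.02 RPKM in Chd8+/+ and 6.70, 3.47 and 5.95 RPKM in Chd8+/- at E12.5. At P5 it was at 138, 149 and 138 RPKM in Chd8+/+ and 156, 142 and 149 RPKM in Chd8+/-, a 24.7-fold rise in Chd8+/+ (log2 4.63, SE 0.175, edgeR adjusted p = 3.01e-12) that moved it from rank 21 to rank 4 among the members. Slc17a6 was at 16.9, 18.6 and 16.7 RPKM in Chd8+/+ and 17.8, 19.4 and 15.9 RPKM in Chd8+/- at E12.5. At P5 it was at 17.1, 15.7 and 15.1 RPKM in Chd8+/+ and 14.6, 15.01 and 15.1 RPKM in Chd8+/-, so that the stages overlapped in Chd8+/+ and not in Chd8+/-. It went from rank 5 to rank 32. VGLUT2 is also the main vesicular glutamate transporter of the thalamus, and the highest Slc17a6 level of each stage was in the library with high Tcf7l2 of that stage. Slc17a6 was called lower in Chd8+/+ as well without P5 Chd8+/+ replicate 1 (log2 fold change -0.17, adjusted p = 0.0439, edgeR), without E12.5 Chd8+/- replicate 2 or replicate 3, and with offsets for length, and it was not called with any other library left out. In Chd8+/- the log2 fold change was -0.25 (adjusted p = 0.00375, edgeR) and -0.18 (adjusted p = 0.0203) without E12.5 Chd8+/- replicate 2. The difference between the genotypes in this change was not past the threshold (log2 -0.13, adjusted p = 0.678, edgeR). Slc32a1, or VGAT, which loads GABA and glycine, rose 3.80-fold in Chd8+/+, from a mean of 6.43 to 24.4 RPKM. In endocytosis, dynamin 1 (Dnm1) rose 8.85-fold and amphiphysin (Amph) 11.1-fold. Dnm1 was at 9.29, 9.40 and 7.81 RPKM in Chd8+/+ and 8.56, 8.39 and 7.51 RPKM in Chd8+/- at E12.5, and at 79.8, 77.6 and 77.1 RPKM in Chd8+/+ and 75.3, 79.7 and 77.7 RPKM in Chd8+/- at P5.

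**Figure D2:**
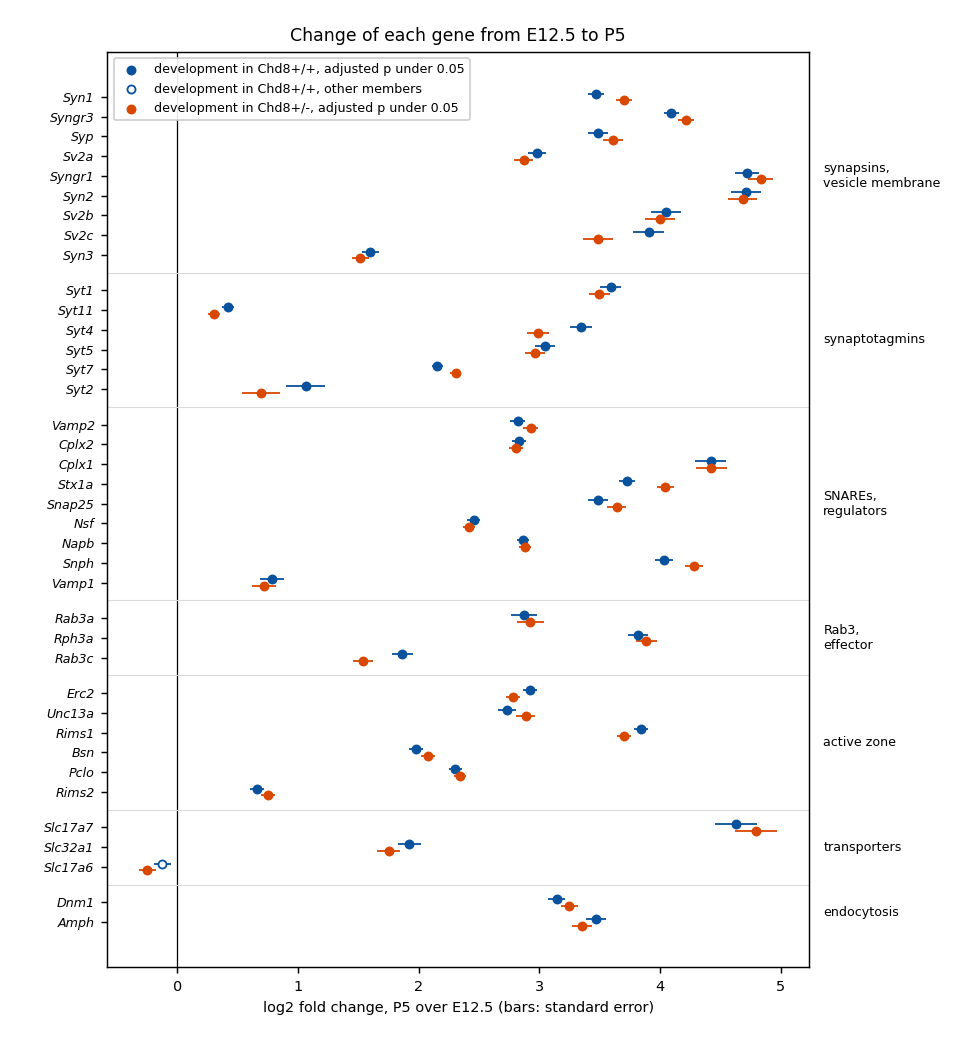
Log2 fold change of each gene from E12.5 to P5 in Chd8+/+ (blue) and Chd8+/- (orange), with SEs as bars, filled where the adjusted p was under 0.05 in edgeR. The changes run from -0.12 for Slc17a6 to 4.72 for Syngr1 in Chd8+/+, and Slc17a6 in Chd8+/+ is the single open symbol.

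The unequal rises changed the balance within gene families. For 9 families of paralogs, the share of 1 paralog in the family's summed RPKM was compared between the 6 libraries of each stage with a two-sided exact permutation test. By this exact permutation test all 9 shares differed, each with p = 0.00217 and adjusted p = 0.00217 over the 9 families, the smallest value this design can give. In the pair of glutamate transporters, Slc17a6 made up 76.0% ± 4.65 (SD) at E12.5 and 9.62% ± 0.811 at P5. In the Rim pair, Rims1 went from 19.6% ± 2.47 to 67.0% ± 1.59, so that the larger part of the pair changed from Rims2 to Rims1. Cplx1 went from 16.3% ± 2.30 to 37.1% ± 2.06 of the complexins, and Rab3a from 69.0% ± 2.88 to 83.6% ± 1.24 of the Rab3 pair. Sv2a fell from 82.3% ± 1.36 to 69.3% ± 0.298 of the SV2 family, while Sv2b went from 14.6% to 26.4%. Among the synapsins, Syn1 fell from 80.7% ± 2.00 to 74.2% ± 1.51, while Syn3 was at 7.16% and 1.62% and Syn2 at 12.2% and 24.2%. In the remaining pairs, Syngr1 went from 32.7% to 42.8% of its pair with Syngr3, Bsn from 69.5% to 65.0% of its pair with Pclo, and Vamp1 from 3.07% to 0.724% of its pair with Vamp2. Between the genotypes, with 3 libraries against 3, the exact permutation test cannot go below p = 0.1, and the smallest adjusted p was 0.9 at E12.5 and 0.36 at P5. The largest genotype differences were those of Rims1 at E12.5 (17.6% in Chd8+/+ and 21.7% in Chd8+/-) and Cplx1 at P5 (35.5% and 38.7%), each without overlap between the genotypes and each with an exact permutation p = 0.1.

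**Figure D3:**
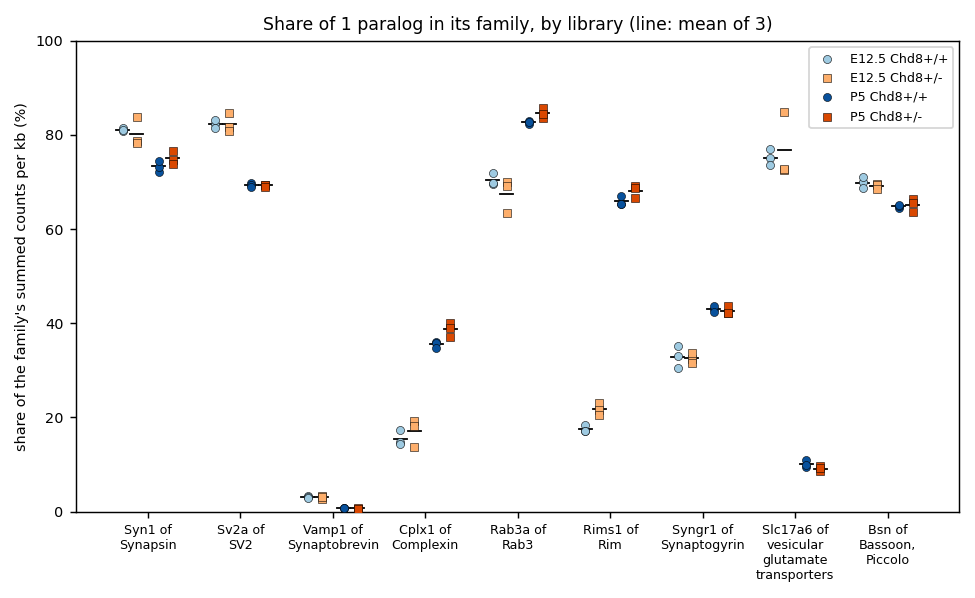
Share of 1 paralog in the summed counts per kilobase of its family, in percent, for each library and 9 families. Circles are Chd8+/+ and squares Chd8+/-, light symbols E12.5 and dark symbols P5, and short lines are means of 3 libraries. Slc17a6 falls from 76.0% to 9.62% and Rims1 rises from 19.6% to 67.0%.

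The genotypes were then compared at E12.5. None of the 38 genes passed the threshold (edgeR, adjusted p under 0.05), where 1 of 18081 genes, 0.00553%, was called. At an unadjusted p under 0.05 there were 4 members (10.5%), against 5.15% of all genes tested, and DESeq2 called none of the 38 with 5 below an unadjusted 0.05, against 4.004% of the 13360 genes to which it gave an adjusted p. The edgeR count was 9, all lower, without Chd8+/- replicate 1 (5.43% of all genes), 3 without Chd8+/- replicate 2 (5.8%), 2 without Chd8+/+ replicate 1 (3.78%) or Chd8+/- replicate 3 (3.89%), and 7 with all 12 libraries in 1 model (7.04%). Fitted differences lay between -0.28 and 0.34 on the log2 scale, with 14 positive and 24 negative values and a median of -0.03. That median ranged from -0.11 to 0.01 as each library was left out. Genotypes did not overlap for 3 members, against 11.4% of all genes tested.

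The 4 genes below an unadjusted 0.05 at E12.5 were Rims2, Stx1a, Syt7 and Syt4. The Rims2 levels given above, 5.78 to 6.44 RPKM in Chd8+/+ and 4.99 to 5.20 RPKM in Chd8+/-, did not overlap (log2 fold change -0.28, SE 0.0612, edgeR adjusted p = 0.924). Stx1a was at 7.33, 7.80 and 7.10 RPKM in Chd8+/+ and 7.05, 6.44 and 5.77 RPKM in Chd8+/- (log2 fold change -0.21, SE 0.0823, adjusted p = 0.942). Syt7 was at 8.78, 8.36 and 8.49 RPKM in Chd8+/+ and 8.21, 7.57 and 7.53 RPKM in Chd8+/- (log2 fold change -0.14, SE 0.0542, adjusted p = 0.942). For these 3 genes, all Chd8+/- libraries were below all Chd8+/+ libraries, at fitted ratios of 0.821 to 0.909. Syt4, a synaptotagmin of dense-core and other secretory vesicles, was at 7.92, 10.3 and 8.72 RPKM in Chd8+/+ and 12.7, 9.95 and 11.3 RPKM in Chd8+/-, with the genotypes overlapping (log2 fold change 0.34, SE 0.112, adjusted p = 0.942). Without Chd8+/- replicate 2, the library with high Tcf7l2, the log2 fold changes were -0.27 for Rims2, -0.21 for Stx1a, -0.12 for Syt7 and 0.42 for Syt4. The other 34 members had fitted differences between -0.19 and 0.26. The 95% interval of the difference was -0.12 to 0.17 for Slc17a6 and -0.50 to 0.30 for Slc17a7, whose lowest value, 3.47 RPKM, was in that same library. Without that library, the log2 fold change of Slc17a7 went from -0.10 to 0.14 (SE 0.0979), that of Sv2b from -0.03 to 0.16 and that of Syn2 from -0.0031 to 0.18, and 19 members were higher and 19 lower.

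At P5, none of the 38 genes was called by edgeR, where 1 of 18666 genes (0.00536%), Chd8 itself, was called. There were 13 members at an unadjusted p under 0.05 (34.2%), against 17.8% of all genes tested, of which 6 were higher and 7 lower in Chd8+/-. That count was 3, all lower, against 14.4% of all genes, with all 12 libraries in 1 model, and 7 (3 higher and 4 lower) against 13.7% with a replicate block, so that its excess over all genes depends on the model. DESeq2, run on the same counts, called 2 members, Syn3 and Rab3c, both lower, against 3.57% of the genes in its test called lower. Genotypes did not overlap for 13 members, 4 of them higher and 9 lower, against 23.4% of all genes tested. All fitted differences were small, between -0.25 and 0.13 on the log2 scale, and the median was -0.02.

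The 6 members with a higher level in Chd8+/- at an unadjusted p under 0.05 are Syn1 and 5 of the 9 SNARE proteins and regulators, where 7.998% of all genes tested were higher at that p. With all 12 libraries in 1 model none of the 38 members was higher at that p, and without Chd8+/+ replicate 1 only Snph was. Vamp2, at 203 to 209 RPKM in Chd8+/+ and 214 to 224 RPKM in Chd8+/-, had a log2 fold change of 0.10 (SE 0.0347, edgeR adjusted p = 0.193). Snap25 was at 55.5, 57.5 and 62.1 RPKM in Chd8+/+ and 61.1, 62.9 and 63.8 RPKM in Chd8+/-, with 1 Chd8+/+ library within the Chd8+/- range (log2 fold change 0.12, SE 0.0460). Stx1a was at 97.6, 98.2 and 98.1 RPKM in Chd8+/+ and 113, 98.5 and 106 RPKM in Chd8+/- (log2 fold change 0.13, SE 0.0493). For Stx1a the genotypes were apart, but Chd8+/- replicate 2 lay close above the Chd8+/+ libraries. Cplx1 was at 108, 112 and 105 RPKM in Chd8+/+ and 121, 109.6 and 116 RPKM in Chd8+/- (log2 fold change 0.11, SE 0.0452), with overlap between the genotypes. Snph was at 16.9, 16.9 and 16.8 RPKM in Chd8+/+ and 18.2, 17.8 and 18.02 RPKM in Chd8+/-, with the smallest p of the 6 (log2 fold change 0.11, SE 0.0328, edgeR adjusted p = 0.143). Syn1, given above, had a log2 fold change of 0.11 (SE 0.0485). All its Chd8+/- libraries were above all Chd8+/+ libraries, the nearest of them by a small margin. Its lowest Chd8+/+ level and its highest Chd8+/- level were in the Xist-high libraries of these groups. The adjusted p of the 6 ran from 0.143 for Snph to 0.279 for Syn1 (edgeR). Without Chd8+/- replicate 1, the log2 fold changes were 0.06 for Syn1 and 0.07 for both Stx1a and Cplx1. DESeq2 called Stx1a and Cplx1 without Chd8+/- replicate 2 and Snap25 without Chd8+/+ replicate 3. It called none of the 6 in its fits without any other library. At an unadjusted p under 0.05 the former fits had 16 and 13 members, in either direction. Of the genes with a DESeq2 adjusted p, 19.3% and 18.05% were at that p, and the share called is not given here.

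The 7 members with a lower level at an unadjusted p under 0.05 include proteins of several roles, among them Cplx2 of the SNARE proteins and regulators. Of that class, Nsf (-0.08), Vamp1 (-0.08) and Napb (0.085) were not at that p in either direction. Syn3 was at 2.80, 2.87 and 2.66 RPKM in Chd8+/+ and 2.33, 2.34 and 2.48 RPKM in Chd8+/-, without overlap (log2 fold change -0.20, SE 0.0509, with adjusted p-values of 0.116 by edgeR and 0.0379 by DESeq2). Rab3c was at 34.1, 34.4 and 32.6 RPKM in Chd8+/+ and 28.2, 30.6 and 30.8 RPKM in Chd8+/-, also without overlap (log2 fold change -0.16, SE 0.0432, with adjusted p-values of 0.128 by edgeR and 0.0164 by DESeq2). Rims2, at 9.37 to 10.04 RPKM in Chd8+/+ and 8.21 to 8.87 RPKM in Chd8+/-, was the only one of the 7 that was also below an unadjusted 0.05 at E12.5, with a log2 fold change of -0.17 (SE 0.0462, with adjusted p-values of 0.127 by edgeR and 0.0585 by DESeq2). The size of the Sv2c difference moved with single libraries. Sv2c was at 5.84, 5.93 and 5.60 RPKM in Chd8+/+ and 3.99, 5.68 and 4.74 RPKM in Chd8+/-, where replicate 2 lay within the Chd8+/+ range. Its log2 fold change was -0.25 (SE 0.0971, edgeR adjusted p = 0.219), and without Chd8+/- replicate 2 it was -0.39 and passed the threshold (adjusted p = 0.0302), while without Chd8+/- replicate 1 it was -0.14 (adjusted p = 0.474). Cplx2 was at 192, 200.4 and 198 RPKM in Chd8+/+ and 181, 187 and 182 RPKM in Chd8+/- (log2 fold change -0.09, SE 0.0333). Sv2a was at 88.4, 89.8 and 84.5 RPKM in Chd8+/+ and 78.9, 82.9 and 81.1 RPKM in Chd8+/- (log2 fold change -0.10, SE 0.0378). Syt11, given above, had a log2 fold change of -0.09 (SE 0.0397). For these last 3 genes, too, the genotypes did not overlap. The Syn3 gene overlaps Timp3 on the opposite strand, and the recorded counting command set no strand option, so that reads of the pair may not be fully told apart. In all, 11 members overlap a gene on the other strand, among them Syn1 with Araf, Syn2 with Timp4, Rab3a with Mpv17l2, Unc13a with Colgalt1, Syt4 with Gm26658, Syt7 with Gm26859 and Slc32a1 with Gm14205.

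The calls moved with the test and the libraries. Under edgeR with no filter on low counts, Syn3, Sv2c, Rab3c and Rims2 were called. In that fit 14 members were at an unadjusted p under 0.05, against 13.6% of all genes. The share of all genes called in that fit is not given here, so that these calls have no background beside them. With DESeq2 and each library left out in turn, between 0 and 4 members were called. None was called without Chd8+/- replicate 1, Chd8+/+ replicate 1 or Chd8+/+ replicate 2. In these fits 6 to 16 members were at an unadjusted p under 0.05. Of the genes with a DESeq2 adjusted p, 11.1% to 19.3% were, and the share called is not given here. Without Chd8+/+ replicate 1, the P5 library with high Tcf7l2, edgeR had 5 members at an unadjusted p under 0.05 (10.99% of all genes tested in that fit), and without Chd8+/+ replicate 2 it had 7 (13.6% of all genes). In the former fit, the 6 higher members had log2 fold changes of 0.07 to 0.12 and the 7 lower ones of -0.25 to -0.09. Without Chd8+/- replicate 3, there were 9 members at that p (15.7% of all genes), and none was called by edgeR. Markers of some other cell types differed between the genotypes at P5 as well, and their part in the values of the members was not tested. As a background, 9.77% of all genes tested were lower at an unadjusted p under 0.05 and 7.998% higher (edgeR). The summed level of 10 markers of striatal medium spiny neurons was 132 to 145 RPKM in Chd8+/+ and 92.8 to 117 RPKM in Chd8+/-, with all 10 lower at an unadjusted p under 0.05 and 8 called by DESeq2. Drd1 was at 25.9 to 28.1 CPM and 18.4 to 22.8 CPM, and Sv2c is abundant in the striatum. For 10 markers of GABAergic interneurons, the sum was 426 to 443 RPKM in Chd8+/+ and 415.5 to 425 RPKM in Chd8+/-, with 4 lower at an unadjusted p under 0.05. For 7 choroid plexus markers, it was 349 to 455 RPKM and 257 to 303 RPKM, with 6 lower. For 7 endothelial markers, it was 62.4 to 70.2 RPKM and 62.01 to 64.4 RPKM, with 5 lower. For 6 thalamic markers, it was 27.6 to 31.7 RPKM and 26.2 to 26.8 RPKM, with 3 lower. Of the 6, Slc17a6 is itself a member and made up 15.1 to 17.1 RPKM and 14.6 to 15.1 RPKM of these sums. For the 10 progenitor markers, the sums overlapped, with 4 lower and 1 higher at that p. Beside the interneuron list stands the GABA transporter Slc32a1, at 25.2, 24.8 and 23.2 RPKM in Chd8+/+ and 19.3, 23.5 and 23.2 RPKM in Chd8+/- (log2 fold change -0.14, SE 0.0672, edgeR adjusted p = 0.324). For 10 cortical excitatory neuron markers, the sums of the genotypes overlapped, at 679.7 to 769 RPKM and 710.3 to 785 RPKM, with 3 lower and 1 higher at an unadjusted p under 0.05 and 3 called lower by DESeq2, and Slc17a7, the transporter of these neurons, had a 95% interval of the difference from -0.01 to 0.18. None of the 8 astrocyte, 8 oligodendrocyte lineage, 7 microglia and 6 neocortical identity markers was at an unadjusted p under 0.05. Of 6 meningeal markers 1 was higher at that p. Of 5 erythrocyte markers tested, 1 was higher and 2 were lower. No marker in these lists was at 0 in any group.

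**Figure D4:**
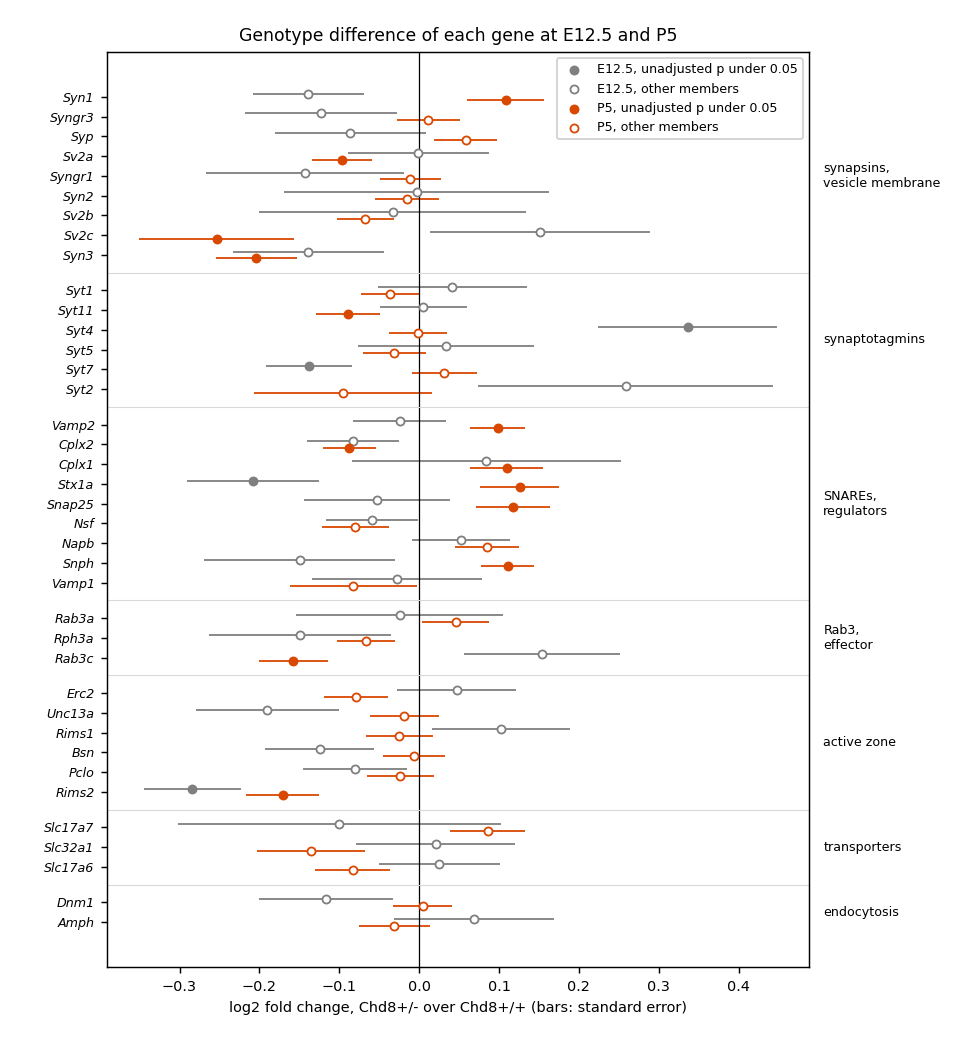
Log2 fold change of each gene in Chd8+/- over Chd8+/+ at E12.5 (grey) and P5 (orange), with SEs as bars, filled where the unadjusted p was under 0.05 in edgeR. At P5 the filled points above 0 are 6 genes, of which 5 are SNARE proteins and regulators. Those below 0 are 7 genes, Cplx2 of the same class among them. At E12.5 the filled points are Syt4 above 0 and Syt7, Stx1a and Rims2 below 0. No point passed the threshold after adjustment.

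At P5 the genotype difference of the members also went with the length of the gene on the chromosome. All 13 members whose gene spans over 100 kb were lower in Chd8+/-, by a median of -0.08 on the log2 scale, while of the 25 shorter members 13 were higher and 12 lower. The limit of 100 kb was chosen after the values were seen. The same held over all genes tested, where 1726 of the 2393 genes over 100 kb were lower, with a median of -0.06. Across genes, Spearman's rho between span and difference was -0.376 over the 38 members and -0.237 over the 18666 genes tested, and genes are not independent replicates. Among the long members are Rims2 (483.6 kb, chromosome 15), Syn3 (443.8 kb, chromosome 10), Rab3c (226.0 kb) and Sv2c (178.0 kb, both chromosome 13), and Erc2 (856.1 kb, chromosome 14). Among the short ones are Vamp2 (3.9 kb, chromosome 11), Stx1a (27.6 kb, chromosome 5) and Cplx1 (31.5 kb, chromosome 5), which were higher in Chd8+/-, and Cplx2 (12.6 kb, chromosome 13), Sv2a (14.4 kb, chromosome 3) and Syt11 (30.5 kb, chromosome 3), which were lower, all 6 at an unadjusted p under 0.05 in edgeR. With offsets that removed each library's trend with genomic span, 7 of the 13 long members were higher and 6 lower, and the median over all members was 0.01 in place of -0.02. Under those offsets the log2 fold changes were -0.11 for Syn3, -0.08 for Rab3c, -0.07 for Rims2 and -0.19 for Sv2c among the long members. Among the short ones they were 0.06 for Vamp2, 0.13 for Stx1a, 0.12 for Cplx1, 0.16 for Snap25, -0.10 for Cplx2, -0.11 for Sv2a and -0.08 for Syt11. Rims2, Sv2c, Vamp2 and Syt11 were then no longer at an unadjusted p under 0.05, while Napb (0.10) and Slc32a1 (-0.17) newly were, which made 11 members against 15.9% of all genes. At E12.5, rho was 0.101 over the members and 0.068 over all genes tested.

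**Figure D5:**
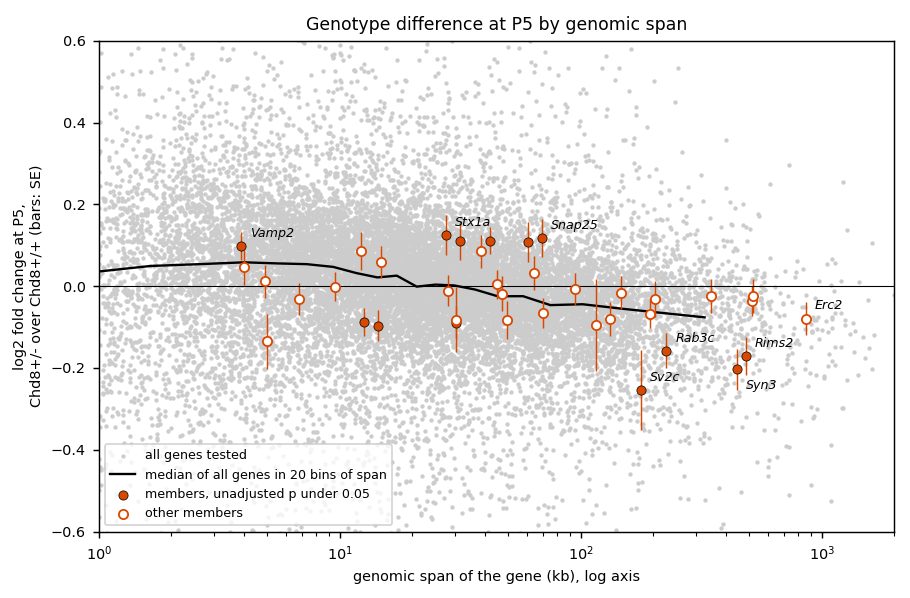
Genotype difference at P5 (log2 fold change, Chd8+/- over Chd8+/+) against the genomic span of each gene in kb on a log axis. Grey points are all genes tested within the axes, with 1217 of 18666 outside them, the black line is their median in 20 bins of span, and orange points are the 38 members with SEs, filled at an unadjusted p under 0.05. The members over 100 kb all lie below 0, as does the median of all genes of that span.

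An interaction term tested whether the genotype difference itself changed with stage. No member passed the threshold (edgeR, with 0% of 19676 genes called), and 7 members were at an unadjusted p under 0.05 (18.4%), against 10% of all genes tested. As each library was left out that count ran from 4, without P5 Chd8+/+ replicate 2 (2 higher and 2 lower, 7.2% of all genes), to 10, without E12.5 Chd8+/- replicate 1 (9 higher and 1 lower, 9.78%). It was 6 (9.42%) without E12.5 Chd8+/- replicate 2, 5 (7.37%) without P5 Chd8+/+ replicate 1 and 7 (9.7%) without P5 Chd8+/- replicate 3. DESeq2 called none of the members and also had 7 below an unadjusted 0.05, against 11.9% of the 8533 genes to which it gave an adjusted p. Stx1a had the smallest p of the 7, with all Chd8+/- libraries below all Chd8+/+ libraries at E12.5 and all above at P5 (difference of the log2 fold changes 0.32, SE 0.0904, edgeR adjusted p = 0.362). Syn1, Syt7 and Snph likewise had a higher value at P5 than at E12.5, by 0.23, 0.15 and 0.25, and Syt4, Rab3c and Sv2c a lower one, by -0.35, -0.33 and -0.42. Snph was at 1.03, 1.12 and 0.936 RPKM in Chd8+/+ and 1.08, 0.839 and 0.872 RPKM in Chd8+/- at E12.5, and Rab3c at 8.29, 10.7 and 8.77 RPKM and at 11, 10.6 and 9.32 RPKM, each with overlap. Sv2c was at 0.404, 0.353 and 0.398 RPKM in Chd8+/+ and 0.382, 0.502 and 0.399 RPKM in Chd8+/- at E12.5. At P5, Syt4 was at 89.1, 93.2 and 91.2 RPKM in Chd8+/+ and 89.1, 88.7 and 92.4 RPKM in Chd8+/-, and Syt7 at 38.6, 36.3 and 39.2 RPKM and at 38.8, 38.9 and 37.7 RPKM, so that neither was apart at that stage. The genotype comparisons share their libraries with the comparisons of stages, so that these values add nothing independent to them. The rise of Stx1a from E12.5 to P5 was 13.2-fold in Chd8+/+ and 16.5-fold in Chd8+/-, and that of Rab3c 3.65-fold and 2.90-fold.

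A further 52 presynaptic genes, listed for comparison, were read in the same fits. In Chd8+/+, 49 of them were called higher at P5 and 3 lower, and the median log2 fold change was 2.45. The smallest p among those that rose belonged to Rimbp2, a Rim-binding protein, from 0.952 to 14 RPKM, and Rims3, a short Rim, from 4.13 to 21.0 RPKM. Among those that fell they belonged to Ppfia1, a liprin, from 9.57 to 4.86 RPKM, and Syngr2, the synaptogyrin of cells outside the nervous system, from 8.47 to 3.95 RPKM. Between the genotypes at P5, edgeR called none of the 52, and 15 were at an unadjusted p under 0.05, with 5 higher and 10 lower, while DESeq2 called 2 higher and 5 lower. Over all genes, 17.8% were at that unadjusted p, and of the 12362 genes to which DESeq2 gave an adjusted p it called 212 higher (1.71%) and 441 lower (3.57%). The smallest p among the higher ones were those of Lin7b (log2 fold change 0.26, adjusted p = 0.108, edgeR) and Syt3 (0.20, adjusted p = 0.117), and among the lower ones those of the endophilin gene Sh3gl2 (-0.24, adjusted p = 0.11) and of Syt10 (-0.52, adjusted p = 0.11). The median over the 52 genes was -0.03, close to the -0.02 of the 38 members.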

How the data were processed

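RNA was measured in 12 mouse neocortex libraries. The authors selected mRNA, made paired-end libraries with dUTP marking, aligned reads to GRCm38 with TopHat2 2.1.0 after Trim Galore 0.4.1 and counted them per gene with featureCounts 1.5.0. The strand option is recorded, as unset, for P5 alone. The deposited values are raw gene counts of 2 sequencing runs, which were summed per library. Genes were filtered with filterByExpr and tested with edgeR 4.0.16 (TMM, quasi-likelihood test, Benjamini-Hochberg adjustment over all genes tested, threshold 0.05), with genotype fitted within each stage and stages compared in 1 model of 12 libraries. DESeq2 1.42.0 was an alternative. The scripts were tested on simulated counts. Values of every library are given for the most abundant member of each role class at P5, members with an unadjusted p under 0.05 in a genotype comparison, and the 3 largest and 3 smallest changes between stages in Chd8+/+. Of the further presynaptic genes, the 2 with the smallest p in each direction were named. The members and lists were chosen with earlier results of these data known, and the genomic-span offsets were added after the data were seen.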

Additional observations from a re-analysis of the deposited data

Results flagged for a closer look

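Stx1a stood out because its genotype difference had opposite directions at the stages, with an unadjusted p under 0.05 at each (edgeR). Other members had opposite directions too, among them Syn1 (-0.14 at E12.5 and 0.11 at P5), Snph (-0.15 and 0.11) and Rab3c (0.15 and -0.16). At E12.5 Stx1a was at 7.33, 7.80 and 7.10 RPKM in Chd8+/+ and 7.05, 6.44 and 5.77 RPKM in Chd8+/-. At P5 Stx1a was at 97.6, 98.2 and 98.1 RPKM in Chd8+/+ and 113, 98.5 and 106 RPKM in Chd8+/-. The P5 difference minus the E12.5 difference was 0.32 in log2 units (SE 0.0904), which did not pass edgeR's quasi-likelihood test (adjusted p = 0.362). Over the alternatives tried, this value ran from 0.27 to 0.41 and its adjusted p from 0.155 to 0.719.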

How the results depend on the processing

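At P5, 0 members were called by edgeR, 2 by DESeq2 and 4 with no filter on low counts, and 0 to 1 with each library left out. DESeq2 with each library left out called 0 to 4. The shares of all genes called with no filter or with a library left out are not given here. The median log2 fold change of the members at P5, -0.0242, was 0.0099 with offsets for exonic length and 0.0086 with offsets for genomic span. In development it was 2.83 and 2.76 under these offsets in Chd8+/+ (2.95 to 3.10 with libraries left out), and 2.78 and 2.81 in Chd8+/- (2.88 to 3.06), while the median over all genes moved to -0.1702 and -0.1303 in Chd8+/+. Rims2 in Chd8+/+ reversed to -0.66 under the span offsets, and the cause was not tested. The genotype-by-stage median ranged from -0.0415 to 0.1083 with libraries left out. Deviations from the group means of samples with the same replicate number had correlations of -0.156 to 0.191. Whether such samples share a litter or batch was not tested. Both P5 replicate 1 libraries had high Xist counts, and their correlation was 0.187. With a replicate block, 0 members were called at E12.5, P5 and in the genotype-by-stage test, 37 and 38 in development, with medians of -0.0386, -0.0252, -0.0077, 3.02 and 2.95, and 7 rather than 13 members were at an unadjusted p under 0.05 at P5. Under the other alternatives, the counts of calls stayed within 1.5 times and the medians moved by less than the spread between replicates. Of the values for single genes, 478 kept their direction and their side of the threshold, and 12 newly passed it. At E12.5, SEs of the members ran from 0.0541 for Syt11 to 0.202 for Slc17a7.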
